A study of Mus musculus with 6 samples.

Results

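The adult haemoglobin genes Hba-a1, Hba-a2, Hbb-bs and Hbb-bt and the erythroid gene Alas2 were followed through 6 RNA libraries of LLC1 tumours as a measure of blood content. They were chosen by gene name, and all 5 were found among the 19288 genes of the count table. LLC1, the Lewis lung carcinoma line, was grown under the skin of hosts that all carried a beta-hCG transgene and were offspring of C57BL/6 females and beta-hCG transgenic FVB males. The 3 groups held 2 libraries each: tumours of transgenic hosts for which no ovariectomy or supplementation is named (transgenic tumours), of transgenic hosts that were ovariectomized and received vehicle (vehicle tumours), and of transgenic hosts that were ovariectomized and received progesterone (progesterone tumours). Hosts of the vehicle and progesterone groups were supplemented for 28 days, and tumours of all groups were removed 30 days after the cells were implanted. The sources used here do not give the promoter of the transgene or the age of the hosts, and every group used the same tumour line. No label says that 2 libraries of a group came from separate animals, so the p-values below measure only the spread between these libraries.

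Haemoglobin is a tetramer of alpha-like and beta-like globin chains, each of which carries a haem group that binds oxygen. In the adult mouse, Hba-a1 and Hba-a2 encode the alpha chain, and Hbb-bs and Hbb-bt encode the beta chains of the haplotype named single. Alas2 encodes the erythroid form of 5-aminolevulinate synthase, the first enzyme of haem synthesis, and is made in erythroid precursors. Globin mRNA persists in reticulocytes, the young red cells of the circulation, so its amount in a tissue is commonly read as a sign of the blood it holds. In a bulk library, fewer cells of a type and less RNA per cell cannot be told apart.

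The alpha genes and the beta genes are each a pair of close copies, which limits how far their separate counts can be trusted. In GRCm38, Hba-a1 (ENSMUSG00000069919) lies on chromosome 11 from 32283511 to 32284465 and Hba-a2 (ENSMUSG00000069917) from 32296489 to 32297298, both on the plus strand. Hbb-bs (ENSMUSG00000052305) lies on chromosome 7 from 103826534 to 103828096 and Hbb-bt (ENSMUSG00000073940) from 103812524 to 103813996, both on the minus strand. Alas2 (ENSMUSG00000025270) lies alone on chromosome X from 150547375 to 150570638 on the plus strand. The coding sequences of the alpha copies, 429 bases long, differed by 1 base, and those of the beta copies, 444 bases long, also differed by 1 base. These stretches are shown because they hold that single coding difference, in capitals, within exons. Positions are counted from 1 at the A of the start codon, and the changes from the first to the second copy are C381T in the alpha pair and C417T in the beta pair.
Hba-a1, chr11:32284313-32284373, plus strand: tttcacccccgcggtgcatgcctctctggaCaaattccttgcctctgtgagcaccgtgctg
Hba-a2, chr11:32297130-32297190, plus strand: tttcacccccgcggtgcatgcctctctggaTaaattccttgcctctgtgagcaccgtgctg
Hbb-bs, chr7:103826665-103826722, minus strand: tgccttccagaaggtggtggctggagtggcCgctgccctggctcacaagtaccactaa
Hbb-bt, chr7:103812656-103812713, minus strand: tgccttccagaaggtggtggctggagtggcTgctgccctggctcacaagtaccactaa
Outside the coding part, the aligned bases of the alpha transcripts had 0 mismatches and those of the beta transcripts had 37. Of all 50-base words, 32.5% of those in the Hba-a1 transcript and 13.1% of those in the Hba-a2 transcript were missing from the other copy. The corresponding shares were 34.2% for Hbb-bs and 41.7% for Hbb-bt. The sources used here do not say how the counting treated reads that fit both copies, so the split between Hba-a1 and Hba-a2, and to a lesser degree between Hbb-bs and Hbb-bt, is uncertain, while the sum of each pair does not depend on it unless such reads were dropped.

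Because the 5 genes moved together across libraries, the letters just before their transcript starts were also read, from the RefSeq promoter table of GRCm38.p6, which held all 5. The 110 bases before each start were searched on both strands for CACCC (a core known to bind Krüppel-like factors), CCAAT (known to bind NF-Y), GATAA (known to bind GATA factors) and TATAA (the TATA box). The 30 bases from -40 to -11 are shown with the matches in capitals; the GENCODE models of some of these genes begin further upstream than the RefSeq start.
Hba-a1, chr11:32283632-32283661, plus strand: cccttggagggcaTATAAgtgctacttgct
Hbb-bs, chr7:103827939-103827968, minus strand: agggcagagcaTATAAggtgaggtaggatc
Hbb-bt, chr7:103813934-103813963, minus strand: cagcATTGGgtaTATAAagctgagcagggt
Alas2, chrX:150547377-150547406, plus strand: GGGTGGGGTGGGGTGggcggggctgagcag
All 4 globin genes had a CACCC match, a CCAAT match and a TATAA match in the 110 bases, which together were found in 0.554% of 32851 windows of that length. Single motifs were common, at 29.6% of windows for CACCC, 20.2% for CCAAT, 10.9% for TATAA and 9.43% for GATAA. In Hba-a1 they began at -60 for CACCC, -88 for CCAAT and -27 for TATAA, and in Hbb-bs at -90, -76 and -29. The Alas2 window held no match to TATAA and none to CCAAT, and it held CACCC on the opposite strand 3 times, with GATAA, also on the opposite strand, at -86. The windows of Hba-a1 and Hba-a2 shared an unbroken run of 107 of 110 bases, whereas the longest run shared by Hbb-bs and Hbb-bt was 14 bases. These are matches of letters, and binding was not measured.

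The libraries held between 19526775 and 30083925 counts, and a gene with no count could still have had up to 3, a level of 0.0997 to 0.154 CPM, the unit used below (a gene's count per 1000000 counts of its library). CPM values below are scaled by TMM, a correction for differences in RNA composition. Of the 6 libraries, transgenic replicate 1 and vehicle replicate 1 stood apart in these genes, so the fold changes of the 5 genes are also given without them, and those of the other erythroid genes named below without vehicle replicate 1. Mitochondrially encoded genes took 1.14% to 1.65% of counts, and the libraries that stood apart, at 1.43% and 1.18%, were inside that range. Among lung epithelial genes, Sftpc, Scgb1a1 and Epcam had 0 to 6 counts in every library and Cdh1 1.70 to 3.44 CPM, while Krt8 and Krt18, keratins of simple epithelia, were at 125 CPM or more.

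Hba-a1, the main alpha globin row, was at 1190.4 and 26.2 CPM in transgenic replicates 1 and 2. It was at 1070.1 and 126 CPM in the vehicle libraries and at 38.5 and 67.4 CPM in the progesterone libraries. Replicate 1 was thus far above replicate 2 in the transgenic and vehicle groups, and the highest library was 45.4 times the lowest, both of them transgenic tumours. Ordered by CPM, Hba-a1 was at rank 57 of all genes in transgenic replicate 1 and at rank 7253 in transgenic replicate 2. Hba-a2, its close copy, was at 70.3 and 1.01 CPM in the transgenic, 55.3 and 4.56 CPM in the vehicle pair and 1.74 and 3.72 CPM in the progesterone libraries. Its lowest value, in transgenic replicate 2, rested on 24 counts.

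Hbb-bs, the main beta globin row, was at 1110.6 and 26.0 CPM in the transgenic libraries, 961 and 124 CPM in the vehicle pair and 34.3 and 73.2 CPM in the progesterone libraries. The order of its libraries was that of Hba-a1, with the 2 replicate 1 libraries on top and transgenic replicate 2 at the bottom. Hbb-bt, the minor beta globin row, was at 365 and 7.0 CPM in the transgenic, 317 and 36.3 CPM in the vehicle pair and 8.38 and 17.0 CPM in the progesterone libraries. Alas2, the haem-making enzyme, was at 81.6 and 2.70 CPM in the transgenic, 85.3 and 9.12 CPM in the vehicle pair and 2.97 and 5.34 CPM in the progesterone libraries. Alas2 alone had its highest value in vehicle replicate 1 rather than in transgenic replicate 1, and its highest was 31.6 times its lowest. Across the 6 libraries, pairwise correlations of log2 CPM among the 5 genes ran from 0.993 to 0.999 (Pearson) and from 0.943 to 1 (Spearman); these describe values that share libraries, and within each pair of copies also reads.

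**Figure D1:**
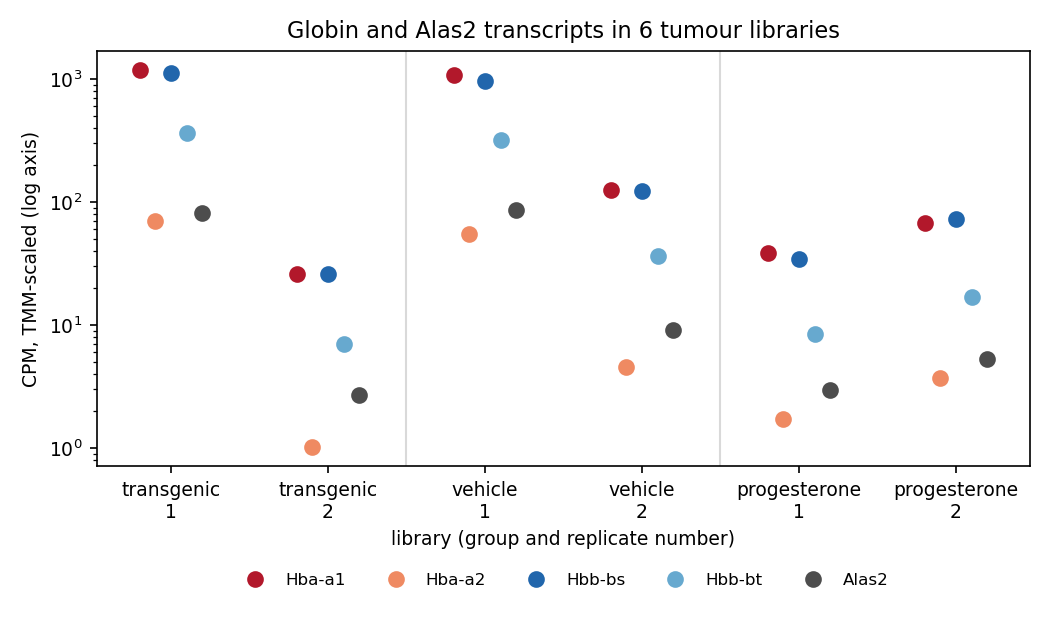
Level of Hba-a1, Hba-a2, Hbb-bs, Hbb-bt and Alas2 in each of the 6 libraries, in TMM-scaled CPM on a log axis; each point is 1 library. Transgenic replicate 1 and vehicle replicate 1 lie above the other 4 libraries in all 5 genes, and Hba-a1 spans 26.2 to 1190.4 CPM.

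Summed over the 4 globin rows, globin took 0.274% of all counts in transgenic replicate 1 (exact binomial 95% interval 0.272% to 0.276%) and 0.00609% in transgenic replicate 2 (0.00577% to 0.00641%). In vehicle tumours the shares were 0.233% (0.231% to 0.235%) and 0.0280% (0.0273% to 0.0288%). In progesterone tumours they were 0.00829% (0.00795% to 0.00865%) and 0.0170% (0.0165% to 0.0175%). No 2 intervals overlapped, and the highest share was 45.0 times the lowest; the intervals cover counting error only, since PCR copies were not marked. Put as a rate, 1 count in 365 was globin in transgenic replicate 1 and 1 in 16433 in transgenic replicate 2. Globin never took more than a small part of a library. No gene was called with or without the 5 rows in the library sizes, so calls cannot show an effect on scaling. The Hba-a1 log2 fold change for progesterone against vehicle was -3.50 in both fits.

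The make-up of the globin counts varied far less than their amount. Alpha rows made up 46.1% and 45.2% of the 4 globin rows in the transgenic, 46.8% and 44.9% in the vehicle pair and 48.5% and 44.1% in the progesterone libraries, so that alpha and beta counts stayed near balance. Hba-a2 made up 5.57% and 3.72% of the alpha counts in the transgenic, 4.91% and 3.50% in the vehicle pair and 4.32% and 5.24% in the progesterone libraries. Alas2 made up 2.90% and 4.29% of the counts of Alas2 and globin together in the transgenic, 3.43% and 3.05% in the vehicle pair and 3.46% and 3.20% in the progesterone libraries. The highest share was 1.10 times the lowest for the alpha rows, 1.48 times for Alas2 and 1.59 times for Hba-a2. Hbb-bt made up 24.7% (24.3% to 25.2%) and 21.2% (18.4% to 24.3%) of the beta counts in the transgenic libraries. Its share was 24.8% (24.3% to 25.2%) and 22.7% (21.2% to 24.3%) in the vehicle pair and 19.6% (17.3% to 22.1%) and 18.9% (17.2% to 20.6%) in the progesterone libraries. The progesterone libraries thus had the lowest Hbb-bt shares, but both of their intervals overlapped that of transgenic replicate 2, and that of progesterone replicate 1 also overlapped that of vehicle replicate 2.

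**Figure D2:**
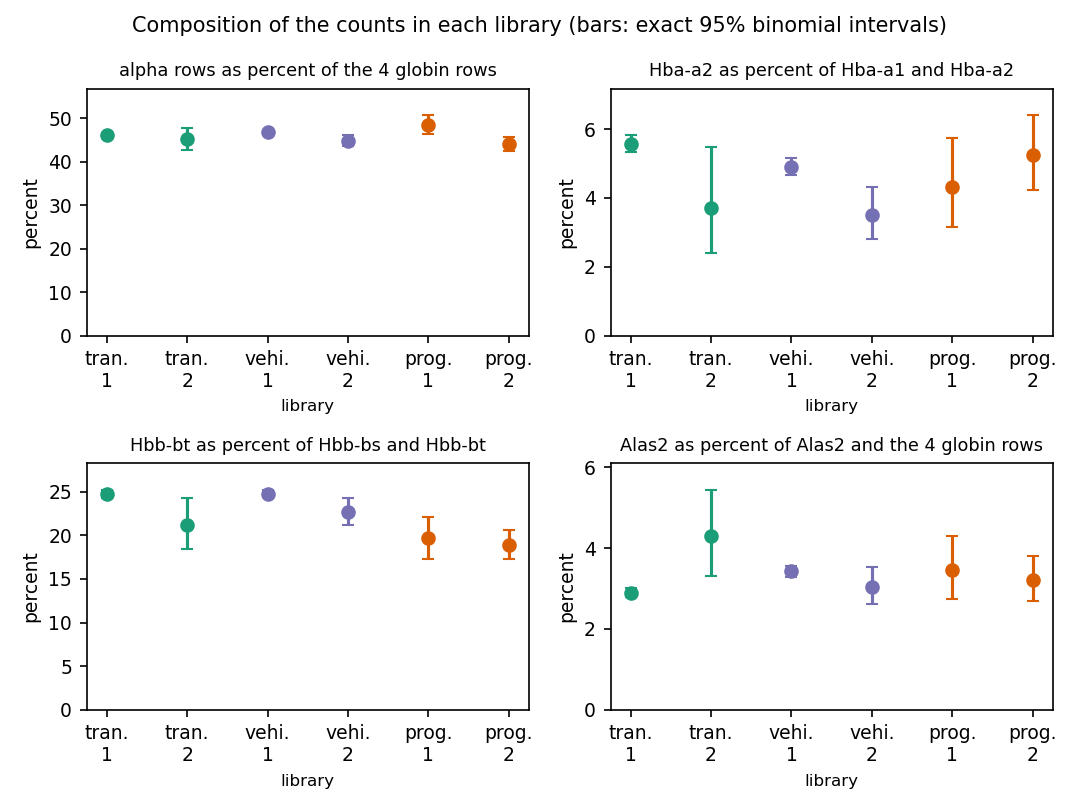
Make-up of the erythroid counts in each library in 4 panels, each a share in percent with exact binomial 95% intervals as bars: alpha rows among the 4 globin rows, Hba-a2 among the alpha rows, Hbb-bt among the beta rows and Alas2 among Alas2 and globin (tran., vehi. and prog. stand for transgenic, vehicle and progesterone). The alpha share stays between 44.1% and 48.5%, and the Hbb-bt share is lowest in the progesterone libraries, at 19.6% and 18.9%.

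To compare genes with each other, counts were divided by the length of their annotated exons and given as CPM per kilobase of exon. On this scale the medians over the 6 libraries were 128 for Hbb-bs, 119 for Hba-a1, 37.9 for Hbb-bt, 6.21 for Hba-a2 and 3.01 for Alas2. Hba-a1 and Hbb-bs were level, with a ratio between 0.870 and 1.06 in every library. Hbb-bs stood 2.78 to 3.94 times above Hbb-bt, Hba-a1 13.9 to 22.6 times above Hba-a2, and Hbb-bs 30.1 to 42.9 times above Alas2. The order below the first 2 genes was the same in all 6 libraries. The gap between the alpha copies is the value most exposed to the sharing of reads described above.

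The spread between replicates was among the widest in the table. In the transgenic group replicate 1 exceeded replicate 2 by 4.88 (Alas2) to 6.01 (Hba-a2) on the log2 CPM scale (prior count 2), and of 13632 genes that passed the filter on low counts only 1 had a larger gap than Hba-a2 and 12 a larger gap than Alas2. In the vehicle group replicate 1 exceeded replicate 2 by 2.96 (Hbb-bs) to 3.58 (Hba-a2), with 21 to 75 genes having larger gaps. In the progesterone group replicate 2 was the higher one, and the gaps ran from -0.80 for Hba-a1 to -1.09 for Hbb-bs, which 1428 to 2112 genes exceeded. As ratios of CPM with intervals for counting error, Hba-a1 in replicate 1 was 45.4 times (41.9 to 49.2) replicate 2 in transgenic tumours, 8.52 times (8.17 to 8.89) in vehicle tumours and 0.572 times (0.528 to 0.619) in progesterone tumours. The biological coefficient of variation that edgeR estimated was 0.869 (Alas2) to 0.980 (Hba-a2), against a median of 0.218 over all genes, and 142 of 13632 genes had a value above that of Alas2.

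**Figure D3:**
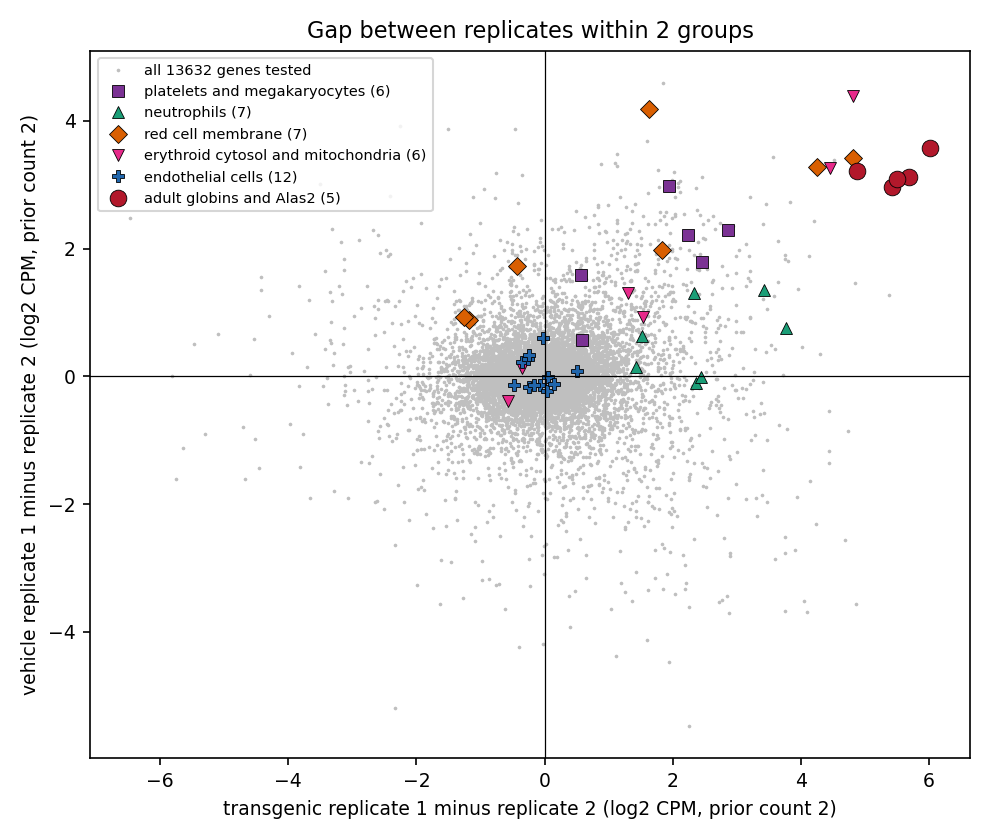
Replicate 1 minus replicate 2 in log2 CPM (prior count 2), in the transgenic group on the horizontal and the vehicle group on the vertical axis; grey points are the 13632 tested genes and coloured points the genes of 6 lists that passed the filter. The 5 globin and Alas2 points lie at 4.88 to 6.01 and 2.96 to 3.58, apart from the cloud, while the endothelial points lie near 0.

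Vehicle tumours were compared with transgenic tumours to ask what ovariectomy with vehicle did; the effects of ovariectomy and of vehicle cannot be told apart. Mean Hba-a1 was 608 ± 823 CPM in transgenic and 598 ± 668 CPM in vehicle tumours (SD, n = 2), and Hbb-bs was 568 ± 767 and 542 ± 592 CPM. The log2 fold changes were -0.02 ± 1.44 (SE) for Hba-a1, -0.25 ± 1.55 for Hba-a2, -0.07 ± 1.43 for Hbb-bs, -0.07 ± 1.46 for Hbb-bt and 0.17 ± 1.36 for Alas2. By edgeR's quasi-likelihood test with Benjamini-Hochberg adjustment, 0 of 5 genes were called (adjusted p 0.995 to 0.998), against 0% of all 13632 genes. The 2 groups overlapped in all 5 genes, where 17.7% of all genes lay wholly lower and 17.9% wholly higher in vehicle tumours. The standard errors exceed 1 log2 unit, so a difference of several fold in either direction was not detectable with these libraries. Which library was present decided the sign: without transgenic replicate 1 the 5 fold changes were 4.13 to 4.88, and without vehicle replicate 1 they were -2.96 to -2.20.

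Progesterone tumours were compared with vehicle tumours, both from ovariectomized hosts, to ask what progesterone did. Mean Hba-a1 was 598 ± 668 CPM in vehicle and 52.9 ± 20.4 CPM in progesterone tumours (SD, n = 2), Hbb-bs was 542 ± 592 and 53.7 ± 27.5 CPM, Hbb-bt 176 ± 198 and 12.7 ± 6.10 CPM, and Alas2 47.2 ± 53.9 and 4.16 ± 1.67 CPM. Both progesterone libraries lay below both vehicle libraries in 5 of 5 genes, where 17.8% of all genes did so and 18.5% lay wholly higher; the 5 genes follow each other closely and do not count as 5 observations. The log2 fold changes were -3.50 ± 1.59 (SE) for Hba-a1, -3.46 ± 1.74 for Hba-a2, -3.34 ± 1.57 for Hbb-bs, -3.80 ± 1.66 for Hbb-bt and -3.51 ± 1.53 for Alas2. By edgeR's quasi-likelihood test 0 of 5 were called (unadjusted p 0.0548 to 0.0872, adjusted p 0.944 for each), against 0% of all genes. Over all genes, 721 had an unadjusted p under 0.05 and 0 members did. DESeq2 called 0.579% of genes and none of the 5, with adjusted p from 0.671 to 0.826; its unadjusted p was 0.0421 for Hbb-bt and 0.0470 for Alas2. Most of the size came from vehicle replicate 1: without it the fold changes were -0.75 (Hba-a2) to -1.52 (Hbb-bt), still lower in all 5 genes.

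Progesterone tumours were also set against transgenic tumours; this comparison shares libraries with the other 2, so the values stand side by side and are not independent. The log2 fold changes were -3.52 ± 1.59 (SE) for Hba-a1, -3.71 ± 1.76 for Hba-a2, -3.40 ± 1.57 for Hbb-bs, -3.87 ± 1.66 for Hbb-bt and -3.34 ± 1.52 for Alas2. By edgeR's quasi-likelihood test 0 of 5 were called (unadjusted p 0.0520 to 0.0727, adjusted p 0.914 for each), against 0% of all genes. Unlike in the comparison with vehicle, the groups overlapped in all 5 genes, since transgenic replicate 2 was the lowest of all 6 libraries; 14.5% of all genes lay wholly lower and 14.5% wholly higher in progesterone tumours. Without transgenic replicate 1 the direction turned, and the 5 fold changes were 0.62 (Alas2) to 1.42 (Hba-a2). DESeq2 called 0.282% of genes here and 0.517% between vehicle and transgenic tumours, with none of the 5 genes in either; its unadjusted p was 0.0385 for Hbb-bt between progesterone and transgenic tumours.

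**Figure D4:**
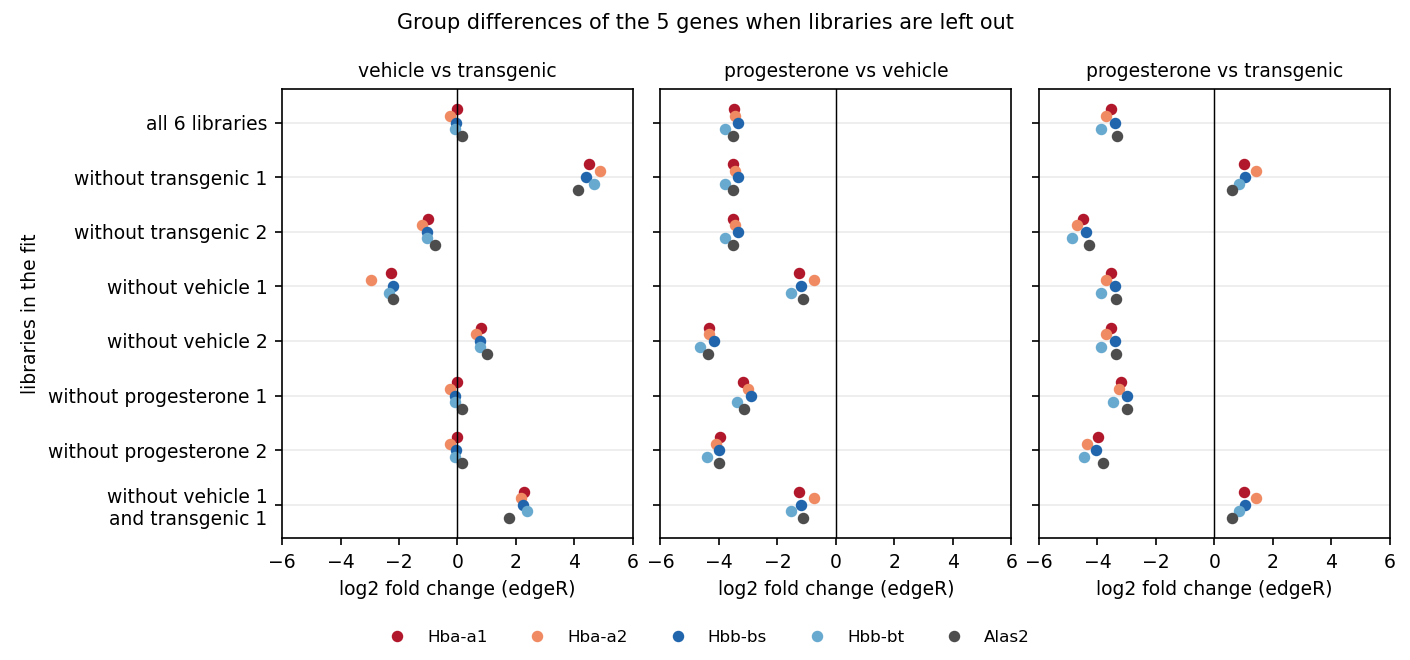
edgeR log2 fold changes of the 5 genes in the 3 comparisons with all 6 libraries, without each library in turn and without both high libraries together; each point is 1 gene. Progesterone lies below vehicle in every row, while the other 2 comparisons change sign with the libraries kept.

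Genes of the red cell membrane and its skeleton gave a mixed picture. Of 12 listed genes 7 passed the filter, some of them only through the 2 high libraries, so no count over the list is read. Slc4a1, the band 3 anion exchanger, was at 8.0 and 2.53 CPM in the transgenic, 12 and 0.583 CPM in the vehicle pair and 0.193 and 0.496 CPM in the progesterone libraries. Add2, Ank1 and Tmod1, at 23.1 to 77.2, 10.1 to 26.4 and 0.265 to 1.77 CPM, did not have these 2 libraries on top. In progesterone against vehicle tumours 0 of the 7 were called by edgeR. Slc4a1 was at -4.19 ± 1.38 on the log2 scale (edgeR adjusted p 0.935), a value that rested on vehicle replicate 1: without it the fold change was -0.76 ± 1.01.

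Among genes of the erythroid cytosol and mitochondria, 6 of 9 in the table passed the filter, Trim10 only through the 2 high libraries. Trim10, a ubiquitin ligase made late in erythroid maturation, had 91 and 1 counts in the transgenic, 112 and 2 in the vehicle pair and 1 and 4 in the progesterone libraries. Bpgm, which makes 2,3-bisphosphoglycerate, was at 44.7 and 18.1 CPM, 41.8 and 16.9 CPM, and 14.9 and 15.8 CPM in the same order. Car2, a carbonic anhydrase, was at 6.48 and 2.19, 6.76 and 3.50, and 2.32 and 6.08 CPM. Slc25a37, the mitochondrial iron importer, stayed between 185 and 245 CPM and did not follow the globins. In progesterone against vehicle tumours 0 of the 6 were called by edgeR. The log2 fold changes were -4.24 for Trim10, -0.94 for Bpgm and -0.29 for Car2 with all libraries, and -0.07, -0.14 and 0.25 without vehicle replicate 1, so that Car2 changed sign. Slc25a37 was at -0.16 with all libraries and at -0.10 without that library.

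Of 8 transcription factors and receptors of erythroid precursors in the table, 3 were near the floor and 5 passed the filter. Gata1, the master regulator of red cell formation, had 0 and 1 counts in the transgenic, 6 and 2 in the vehicle pair and 4 and 5 in the progesterone libraries. Klf1, which switches on adult beta globin, had 6 and 6, 7 and 3, and 5 and 2 counts, and Gfi1b had 0 or 1 everywhere. Tfrc, the transferrin receptor, found on most dividing cells, was at 130 and 191 CPM in the transgenic, 107 and 73.4 CPM in the vehicle pair and 116 and 104 CPM in the progesterone libraries. Lmo2, Tal1 and Epor, at 8.63 to 18.6, 1.48 to 4.43 and 1.35 to 3.37 CPM, also did not rank the libraries as the globins did. Nfe2, a factor of erythroid cells and megakaryocytes, was at 1.63 and 1.01 CPM, 2.98 and 0.795 CPM, and 1.08 and 0.786 CPM, highest in the 2 libraries with the most globin.

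The ubiquitous steps of haem synthesis varied far less than globin. All 8 listed enzymes passed the filter, and their summed level was 272 to 365 CPM. None had transgenic replicate 1 and vehicle replicate 1 as its 2 highest libraries, but only 6.59% of all genes did, so this count is no result. Alas1, the form of the same enzyme as Alas2 that most tissues use, was at 39.1 to 57.6 CPM, and Fech, which inserts the iron, at 58.5 to 99.9 CPM. Alad and Ppox were at 48.1 to 100.5 and 26.2 to 42.7 CPM. In progesterone against vehicle tumours the list's median log2 fold change was 0.06, with 6 genes higher, 2 lower and 0 called. Of other globin genes, embryonic Hba-x had 1 count in transgenic replicate 1 and 0 elsewhere. The theta-like genes Hbq1a and Hbq1b had 0 to 7 and 0 to 11 counts, most of them in the replicate 1 libraries of the transgenic and vehicle groups. Cygb, a globin of fibroblast-like cells, was at 2.70 to 14.8 CPM, and Ngb and Mb, the neuronal and muscle globins, at most at 1.78 and 0.686 CPM.

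Markers of other blood and vessel cells were read beside these genes, and their part in the differences was not tested. Platelet and megakaryocyte genes summed to 56.7 and 29.9 CPM in the transgenic, 64.8 and 28.0 CPM in the vehicle pair and 59.1 and 62.3 CPM in the progesterone libraries. Of the 6 that passed the filter, Tubb1, Gp9 and Clec1b did so through the libraries with the most globin, so their order is no result. Ppbp, a platelet chemokine, was at 14.0 and 2.91, 14.5 and 3.07, and 7.57 and 6.21 CPM, and Pf4 at 19.5 to 51.6 CPM with its highest values in the progesterone libraries. Itga2b, the platelet integrin, was at 5.33 and 3.58, 12.8 and 4.19, and 4.71 and 4.01 CPM, highest in the 2 libraries with the most globin. Tubb1, the tubulin of platelets, had 15 and 2, 102 and 7, and 1 and 3 counts. The platelet receptor gene Gp6 was at 0 counts in 3 libraries. Neutrophil genes summed to 197 and 35.7 CPM in the transgenic, 137 and 134 CPM in the vehicle pair and 108 and 75.8 CPM in the progesterone libraries. S100a9, the calprotectin subunit, was at 100.9 and 19.5, 70.8 and 75.9, and 63.8 and 42.0 CPM, and S100a8, its partner, was at 67 and 12.2, 46.6 and 46.9, and 35.3 and 26.1 CPM. Retnlg was at 18.7 and 1.31, 11.2 and 6.63, and 3.17 and 3.93 CPM, highest in the 2 libraries with the most globin. Mmp8 ranged from 2.02 to 5.93 CPM and did not have those 2 libraries on top. Retnlg and Mmp8 were each lowest in transgenic replicate 2. Elane and Mpo, made in precursors, were at 0 to 4 counts, and Camp, a granule peptide gene, was at 0 in 3 libraries.

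Endothelial genes summed to 382 and 409 CPM in the transgenic, 385 and 377 CPM in the vehicle pair and 237 and 384 CPM in the progesterone libraries. None of the 12 had the 2 high-globin libraries on top, but only 6.59% of all 13632 genes did, so this count is no result. Pecam1 was at 78.0, 99.5, 72.9, 62.7, 35.4 and 91.6 CPM in the order of transgenic, vehicle and progesterone replicates. Cdh5 was at 29.1 to 90.5 CPM and Eng at 73.6 to 112 CPM. None of these genes ranked the libraries as globin did. Vwf, of endothelium and platelets, was at 27.7 and 29.2, 51.5 and 56.7, and 12.9 and 19.5 CPM; it was not called by edgeR, whereas DESeq2 called it lower in progesterone than in vehicle tumours (log2 fold change -1.75 ± 0.265, adjusted p 2.02e-07). Cldn5, the claudin of endothelial junctions, was at 17.5 and 15.8, 15.4 and 16.7, and 7.34 and 7.74 CPM; edgeR did not call it, and DESeq2 called it lower in progesterone than in vehicle tumours (-1.09 ± 0.250, adjusted p 0.00426) and than in transgenic tumours (-1.14 ± 0.249, adjusted p 0.00427). B and T lymphocyte genes summed to 0.954 to 5.48 CPM. Among genes that clear haemoglobin and haem, Hmox1, haem oxygenase, was at 202 and 162 CPM in the transgenic, 180 and 188 CPM in the vehicle pair and 373 and 406 CPM in the progesterone libraries; edgeR did not call it (log2 fold change against vehicle 1.08 ± 0.173, adjusted p 0.705), and DESeq2 called it higher than in vehicle (adjusted p 9.51e-06) and in transgenic tumours (adjusted p 9.17e-06). Slc40a1, the iron exporter ferroportin, was at 3.82 and 2.91, 1.99 and 6.10, and 15.3 and 14.9 CPM; edgeR did not call it, and DESeq2 called it higher in progesterone than in transgenic tumours (2.16 ± 0.543, adjusted p 0.0359). Cd163, the haemoglobin scavenger receptor of macrophages, was at 126 CPM in progesterone replicate 2 and at 0.848 to 8.18 CPM elsewhere. Of the 8 listed clearance genes, 5 were higher in progesterone than in vehicle tumours and 3 lower, with 0 called by edgeR. The lower ones were Lrp1 (log2 fold change -0.30), Hp (-0.34) and Hpx (-0.19). The progesterone libraries had the highest Hmox1 levels, while transgenic replicate 2, the library with the least globin, had the lowest, at 162 CPM. A link between Hmox1 and globin was not tested.

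**Figure D5:**
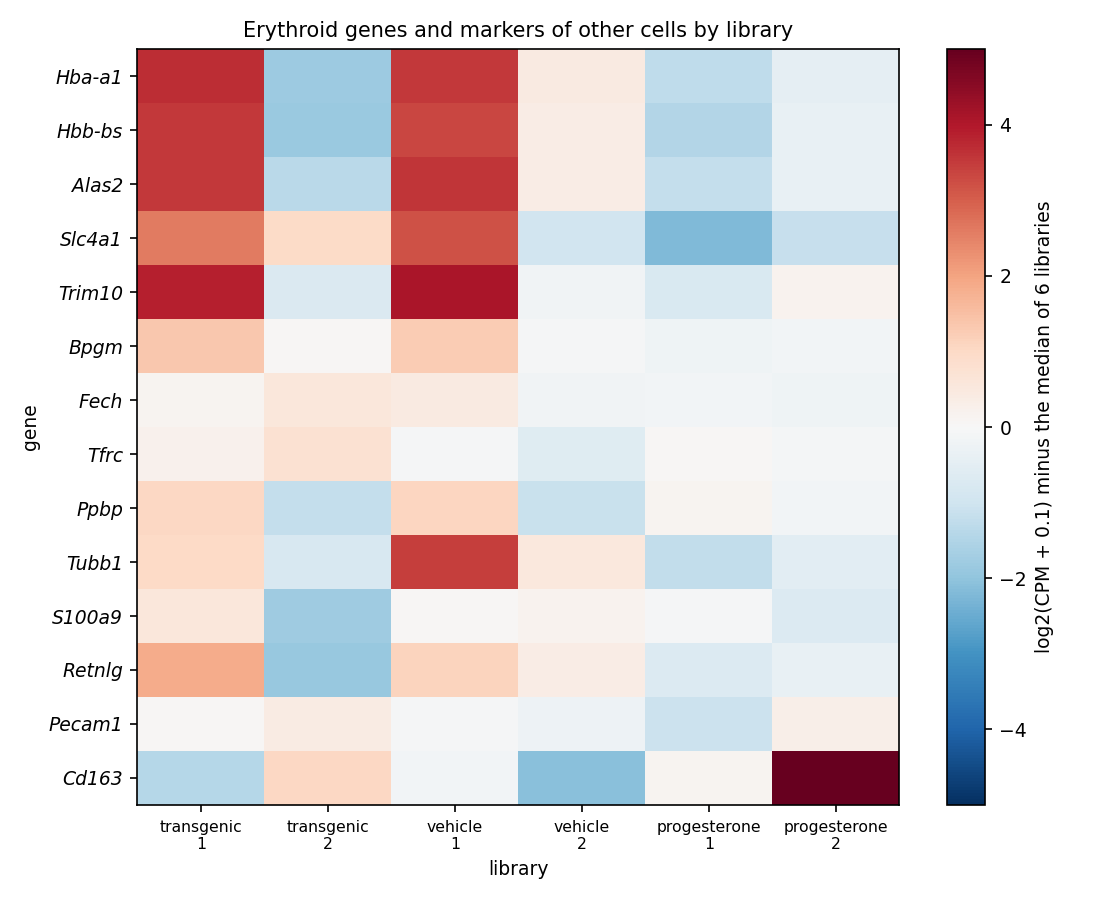
Level of 14 genes in the 6 libraries as log2(CPM + 0.1) minus each gene's median, from erythroid genes at the top to endothelial and macrophage genes at the bottom; these 14 were picked for display after their values were seen. Hba-a1, Hbb-bs, Alas2 and Trim10 are highest in transgenic replicate 1 and vehicle replicate 1, whereas Fech, Tfrc and Pecam1 are not.

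The genes most like globin in pattern were found by Pearson correlation of log2 CPM with the summed globin rows over the 6 libraries, among 10240 genes with a mean of at least 5 CPM. Among the first 8 were Desi1 (0.991), Rxylt1 (0.987), E2f3 (0.984), Cul3 (0.983), Smndc1 (0.979), Cnih4 (0.978) and Ankra2 (0.974). These genes varied far less than globin did: Desi1 ranged 1.58-fold, from 58.6 to 92.6 CPM, and Cnih4 1.15-fold. In total 25 genes had r of at least 0.95 and 51 had r of at most -0.95, a description over 6 points that share their libraries.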

How the data were processed

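Raw read counts per gene, not normalized, were deposited by the authors for all 6 libraries. Per the submitters' processing notes, HISAT2, HTSeq, DESeq and the build GRCm38.p6 were used; the sources used here give neither versions nor the strand setting. Per the labels' protocols, 500 ng of RNA entered a directional mRNA kit with 11 PCR cycles. The table held 19288 genes, 19284 of them with a GENCODE model of GRCm38, the source of coordinates and lengths.

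Counts were analysed in R 4.3.3 with edgeR 4.0.16 (filterByExpr, 13632 genes; TMM; quasi-likelihood, 1 mean per group, 3 residual degrees of freedom), calling genes at a Benjamini-Hochberg adjusted p under 0.05 over all genes tested. Standard errors were derived from the F statistic. Alternatives were DESeq2 1.42.0, limma 3.58.1 (voom), other size factors, no filter, a replicate block, summed copies, member rows left out and libraries left out; the fitting code was tested on simulated counts. Other tables were made in Python 3.11.15. Intervals are exact binomial at 95%, or for ratios of 2 counts derived from it, and cover counting error only.

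The members and lists were chosen with earlier results of these data known. The rule for other genes named the 4 with the highest mean CPM of each list, those called in any comparison, and the 8 most like globin; further list genes, such as Trim10 and Tubb1, were named after their values were seen. Some genes that the rule names are left out of this text. Listed genes absent from the table used, such as Ahsp and Zfpm1, were not analysed here.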

Additional observations from a re-analysis of the deposited data

How the results depend on the processing

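With all 6 libraries edgeR called 0 genes in each comparison, and so did edgeR with DESeq2 size factors, limma-voom, the fit without the member rows in the library sizes, the fit with summed copies, and each fit without 1 library (0 to 0 genes). DESeq2 called 63 genes between vehicle and transgenic, 77 between progesterone and vehicle and 47 between progesterone and transgenic tumours; without the filter on low counts edgeR called 12, 92 and 28, and without vehicle replicate 1 and transgenic replicate 1 together, chosen after seeing the data and with 1 residual degree of freedom, 35, 7 and 18. The cause was not tested. A fit with log2 globin level as a covariate, also added after seeing the data, called 0 genes; its covariate is made of the globin rows themselves, so its fold changes for the 5 genes, -0.22 to 0.57 for progesterone against vehicle, are not among those counted next. None of the 5 genes was called under any alternative, the lowest adjusted p being 0.0758.

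Of 68 alternative fold changes per comparison, 0 changed sign between progesterone and vehicle, 10 between progesterone and transgenic and 22 between vehicle and transgenic tumours. For vehicle against transgenic, limma-voom gave 1.04 for Hba-a1, 1.04 for Hba-a2, 1.01 for Hbb-bs and 1.06 for Hbb-bt, and without both high libraries the values were 2.26, 2.17, 2.25 and 2.38. Without 1 library they ran from -2.27 to 4.51, -2.96 to 4.88, -2.20 to 4.39, -2.35 to 4.66 and, for Alas2, -2.20 to 4.13. For progesterone against transgenic, leaving out both high libraries gave 1.01, 1.42, 1.04, 0.85 and 0.62 in the order Hba-a1, Hba-a2, Hbb-bs, Hbb-bt and Alas2, and leaving out 1 library -4.49 to 1.01, -4.69 to 1.42, -4.37 to 1.04, -4.85 to 0.85 and -4.30 to 0.62. For progesterone against vehicle, leaving out 1 library gave -4.34 to -1.25, -4.34 to -0.75, -4.17 to -1.21, -4.65 to -1.52 and -4.36 to -1.14. Where a group was left with 1 library, that library was assumed to vary like the other groups.

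With the replicate number as a block, 0 genes were called, and the fold changes for vehicle against transgenic were 0.49 for Hba-a1, 0.22 for Hba-a2, 0.44 for Hbb-bs and 0.44 for Hbb-bt. The block gave -2.25 to -1.67 for progesterone against vehicle and -1.81 to -1.41 for progesterone against transgenic. Same-numbered libraries did not deviate together over 13632 genes (correlations 0.0804, -0.174 and -0.125), so the numbers were not taken to pair libraries. Without mitochondrially encoded genes the globin share was 0.278% in transgenic replicate 1 and 0.236% in vehicle replicate 1, and the other 4 shares moved by less than their intervals. With 2 libraries a group, the gap between the replicates, not counting depth, limits these comparisons.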

Other observations

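In all, 11 of 13632 genes were at least 8-fold higher (log2 CPM, prior count 2) in replicate 1 than in replicate 2 of both the transgenic and the vehicle group, out of 92 in the transgenic and 30 in the vehicle group, and 0 were so in the opposite direction. Among them were Hba-a1, Hba-a2, Hbb-bt, Alas2, the erythroid gene Trim10, Il1a, encoding interleukin-1 alpha, Csf2, encoding the growth factor GM-CSF, and Apol11b, an apolipoprotein L gene. Hbb-bs, with a gap of 2.96 in the vehicle group, was just under that limit. Il1a was at 10.9 and 0.843 CPM in the transgenic, 3.64 and 0.265 CPM in the vehicle and 0.541 and 0.455 CPM in the progesterone libraries. Csf2 was at 2.74 and 0.0421, 2.44 and 0.159, and 0.927 and 0.124 CPM, and Apol11b at 4.48 and 0.0843, 3.84 and 0.265, and 0.0386 and 0.124 CPM. Apol11b, like Trim10, passed the filter on low counts only through the 2 high libraries, so its order is no result. Csf2 was below 3 counts in transgenic replicate 2. It was at 3 counts in vehicle replicate 2 and in progesterone replicate 2, so its gaps rest on very few counts. Il1a and Csf2 were the only ones of the 11 that were higher in replicate 1 than in replicate 2 of the progesterone group, by 0.21 and 2.30. The 8-fold limit was chosen after the values were seen.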
